A study of Sus scrofa domesticus with 4 samples.

Results

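Solute carriers are the membrane proteins that move nutrients, ions, metals, vitamins and metabolites into and out of cells and organelles. The genes described here were all those on a porcine oligonucleotide array whose probe accession maps, by the pig RefSeq annotation, to a symbol starting with SLC and a digit or with SLCO. Such symbols numbered 82 on the array, with 166 probes. Of these, 63 genes gave a signal well above background in 4 or more of the 8 animals' channels by some probe and were tested, among 18852 features in all, 2406 of them with a gene symbol. Anterior pituitary tissue came from 8 gilts, pigs that have not yet had a litter, crossbred from Large White and Polish Landrace. The pregnant group held 4 animals, bred naturally, found to carry conceptuses and collected on days 15 to 16 of pregnancy, and the cyclic group held 4 animals collected on days 15 to 16 of the estrous cycle. RNA of 1 pregnant animal was hybridised with that of 1 cyclic animal on each of 4 two-colour arrays, which makes every array a pair. The label fields give the pregnant RNA the green dye Cy3 on arrays 1 and 3, and the red dye Cy5 on arrays 2 and 4. The labels do not say how the animals of a pair were matched.

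Carriers work without burning ATP themselves. Some let a solute run down its own gradient, and others couple it to sodium, protons or another solute, so they depend on the sodium pump and the vacuolar proton pump. In endocrine cells they also feed hormone production: amino acid carriers supply protein synthesis, zinc carriers load secretory granules, and nucleotide sugar carriers of the Golgi supply the sugars of glycoprotein hormones.

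The labelled tissue was borne out by its hormone genes: 9 of 11 anterior pituitary markers were tested, all of them well above background in 8 of 8 channels, and the 2 others had no named probe. Markers of the neighbouring lobes were also above background: OXT in 4 pregnant and 4 cyclic channels, PCSK2 in 4 and 3, and GFAP in only 2 and 2. AVP was not in at least 4 channels, and the red cell markers had no named probe. Between 50.5% and 60.5% of probes were well above background in pregnant channels, and between 52.6% and 66.5% in cyclic channels, where array 1 had the highest share. Of the 9 anterior pituitary markers, 1 was at an unadjusted p under 0.05, as were 7.21% of all features. This was LHB, at -0.42 ± 0.15 pregnant over cyclic (limma, unadjusted p = 0.0367, adjusted p = 0.647). Pairs of animals also differed from each other: the ratios of TSHB ran from -4.20 to 4.48 over the arrays. The part of such differences in the carriers' values was not tested. Values of single animals below are normalized log2 intensities of a probe, which compare animals and not genes. Estimates are mean log2 ratios, pregnant over cyclic, ± the standard error from a limma fit over 4 arrays that has a dye term for each gene. In whole tissue a lower level in each cell and fewer cells of the type that makes a transcript cannot be told apart.

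No solute carrier gene passed adjustment over all features (0 of 63, limma with Benjamini-Hochberg adjustment, adjusted p from 0.647 to 0.994), and neither did any other feature (0 of 18852, 0%). At an unadjusted p under 0.05 there were 6 of the 63 genes, 9.52%, beside 7.21% of all features. Of these, 5 were above 0 and 1 below 0, where all features gave 3.03% and 4.18%. That split was 0 above and 2 below with each array centred on its median in place of loess, 3 above and 1 below with the scanner software's processed signals, and 3 and 2 without the dye term. The median of the 63 estimates was -0.018, beside -0.018 over all features. Estimates were below 0 for 35 of them, as for 54.3% of all features. All 4 arrays had the same sign for 9 carriers, 14.3% beside 13.9% of all features, with 4 above 0 (all features 6.42%) and 5 below 0 (all features 7.43%). The shares below 0 and of 1 sign lay near those of all features. The 5 genes above 0 at the unadjusted threshold were a larger share than over all features. That count was 0 without array 1, 3 without array 2, 2 without array 3 and 4 without array 4. The share of all features in either direction also moved in these fits, to 3.38%, 3.27%, 8.83% and 11.5% in that order. For the carriers it was 1.59%, 6.35%, 6.35% and 15.9%. The text of the labelling protocol differs from the label fields on the dyes, and if the pregnant RNA carried Cy3 on every array, SLC44A4 would stand at -0.054 and SLC9A3R2 at 0.40, both on the other side of 0 from the values below. SLC30A1, SLC35E4, SLC7A1 and SLC38A6 would then stand at 0.19, 0.26, 0.29 and 0.31, and none of these 6 genes would be at an unadjusted p under 0.05, the lowest being 0.0909 for SLC7A1 by limma.

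**Figure D1:**
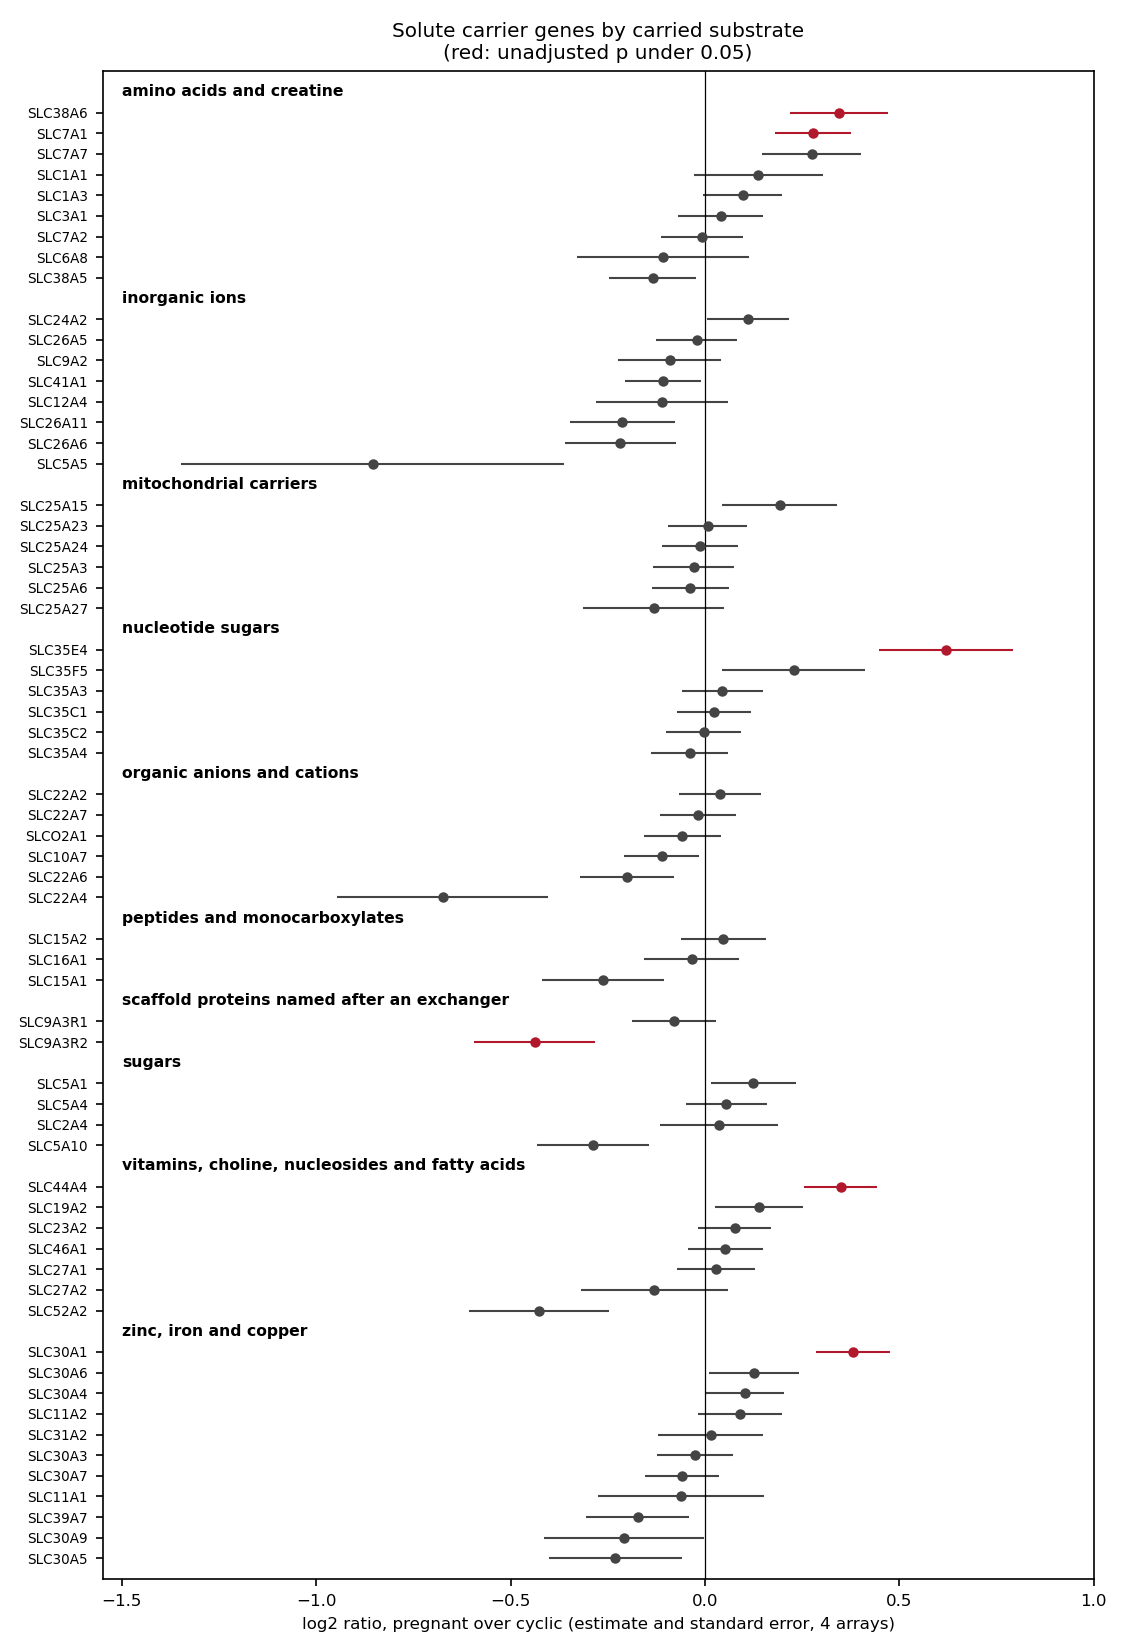
Log2 ratio of pregnant over cyclic (x axis) for 62 of the 63 tested solute carrier genes, in rows by carried substrate, with points at the limma estimate and bars of 1 standard error over 4 arrays. Red marks the 6 genes at an unadjusted p under 0.05, of which SLC9A3R2 alone lies below 0, and SLC5A5 has the widest bar, 0.49 on each side.

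Among the carriers of zinc, iron and copper, SLC30A1 had the lowest p of all 63 genes. It encodes ZnT1, the exporter that moves zinc out of the cell across the plasma membrane. Its probe (RefSeq NM_001139470) read 8.93, 8.46, 9.25 and 9.05 in the pregnant animals of arrays 1 to 4, against 8.32, 8.26, 8.72 and 8.86 in the cyclic animals. The pregnant animal was the higher of the pair on 4 of 4 arrays, but the groups overlapped. The estimate was 0.38 ± 0.095, a fold of 1.30 (limma, unadjusted p = 0.00950, adjusted p = 0.647). A second probe of the gene gave 0.38, although there array 4 was below 0. The gap was wider on arrays 1 and 3, at 0.61 and 0.53, where the pregnant RNA carried Cy3, than on arrays 2 and 4, at 0.20 and 0.19. The unadjusted p was over 0.05 without array 1, at 0.0596, and under median centring, at 0.120.

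Other zinc carriers did not share that direction as a family. SLC30A5 and SLC30A6, whose products pair to bring zinc into the early secretory pathway, stood at -0.23 ± 0.17 and 0.13 ± 0.12. On single arrays SLC30A5 was at -0.59, -0.52, 0.063 and 0.12, so arrays 1 and 2 were below 0 and arrays 3 and 4 slightly above it. SLC30A7, another zinc carrier of the Golgi, stood at -0.060 ± 0.095. SLC39A7, which releases zinc from the endoplasmic reticulum, stood at -0.17 ± 0.13, with its 3 other probes between -0.29 and -0.24. The lowest of these had ratios of -0.36, -0.36, -0.046 and -0.40. In a limma fit of every kept probe its unadjusted p was 0.0385, and those of the others were 0.0521 and 0.124. SLC30A9 stood at -0.21 ± 0.21, SLC30A4 at 0.10 ± 0.10 and SLC30A3, which loads zinc into synaptic vesicles, at -0.026 ± 0.097. Of the iron carriers, SLC11A2, the divalent metal transporter DMT1, stood at 0.089 ± 0.11. SLC11A1, the phagosomal metal carrier of macrophages, had the widest range of the metal carriers, with ratios of -0.92, -0.042, 0.15 and 0.57 and an estimate of -0.062 ± 0.21. Its other probe had the opposite sign, at 0.23. SLC31A2, a copper carrier, stood at 0.014 ± 0.14, with array 2 apart from the rest at 0.46. It read 6.90, 9.48, 7.16 and 7.14 in the pregnant animals and 7.03, 9.03, 7.27 and 7.30 in the cyclic animals, so both animals of array 2 were above the other 6. By their brightest probes, 5 of the 11 metal carriers were above 0 and 6 below, with a median of -0.026. Of these estimates, that of SLC30A1 was the 1 at an unadjusted p under 0.05.

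Among carriers of vitamins, choline and fatty acids, SLC44A4 was nearly alike on all 4 arrays. It belongs to the choline transporter-like family, and in human colon its product takes up thiamine pyrophosphate. Its probe (RefSeq NM_001101818) read 13.79, 13.62, 13.77 and 13.81 in the pregnant animals and 13.50, 13.23, 13.47 and 13.38 in the cyclic animals. Every pregnant animal was above every cyclic animal, the 1 carrier of 63 for which the groups did not overlap, beside 1.9% of all features. The ratios on arrays 1 to 4 were 0.29, 0.38, 0.30 and 0.42, and the estimate was 0.35 ± 0.094, a fold of 1.27 (limma, unadjusted p = 0.0131, adjusted p = 0.647). The dye effect was small, at 0.054 ± 0.094 for red over green. Probes of the gene did not all share this: of 4 others, 2 gave 0.32 and 0.35, while the remaining 2 gave 0.040 and 0.064. With the mean of its 5 probes the gene stood at 0.23 with an unadjusted p of 0.0613 by limma. Without array 1, 3 or 4 that p was 0.0646, 0.0675 and 0.0515, with estimates of 0.35, 0.35 and 0.34.

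SLC52A2, a riboflavin transporter, lay on the other side. It read 10.25, 9.89, 10.32 and 10.67 in the pregnant animals, against 10.74, 10.90, 10.44 and 10.76 in the cyclic animals. The pregnant animal was the lower on 4 of 4 arrays, by the most on array 2, and the groups overlapped. The estimate was -0.43 ± 0.18 (limma, unadjusted p = 0.0630, adjusted p = 0.647), and its 2 other probes gave -0.49 and -0.37. SLC19A2, the thiamine transporter, stood at 0.14 ± 0.11, SLC23A2, the sodium-coupled ascorbate transporter, at 0.076 ± 0.094, and SLC46A1, the proton-coupled folate transporter, at 0.053 ± 0.096. Of the fatty acid transport proteins, SLC27A1 stood at 0.028 ± 0.10, with its other probes at -0.13 and -0.030, and SLC27A2 at -0.13 ± 0.19. SLC27A2 was at -0.90 on array 3 and between -0.015 and 0.28 on the others, and without array 3 it stood at 0.12. The 7 genes of this group had 5 estimates above 0 and 2 below, with a median of 0.053. With the mean of a gene's probes 4 were above 0 and 3 below.

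Amino acid carriers held 2 of the 6 genes at an unadjusted p under 0.05, both above 0. SLC38A6, of the family of sodium-coupled neutral amino acid transporters, read 8.87, 8.67, 9.10 and 8.35 in the pregnant animals, against 8.28, 8.37, 8.39 and 8.58 in the cyclic animals. Arrays 1, 2 and 3 had the pregnant animal higher and array 4 had it lower, so the groups overlapped. The estimate was 0.35 ± 0.13, a fold of 1.27 (limma, unadjusted p = 0.0402, adjusted p = 0.647), and its 3 other probes gave 0.29, 0.25 and 0.25. SLC7A1, the cationic amino acid transporter CAT1 that brings in arginine and lysine, read 12.76, 12.73, 13.13 and 12.82 in the pregnant animals and 12.18, 12.67, 12.58 and 12.91 in the cyclic animals. Again array 4 alone had the pregnant animal lower. The estimate was 0.28 ± 0.097, a fold of 1.21 (limma, unadjusted p = 0.0340, adjusted p = 0.647), beside a dye effect of equal size, -0.29 ± 0.097 for red over green. For both genes the ratio was high on arrays 1 and 3, where the pregnant RNA carried Cy3, and in the ratio fit without the dye term limma gave 0.0892 for SLC38A6 and 0.116 for SLC7A1. Without array 1, 2 or 3 neither passed. Without array 4, SLC38A6 did at 0.0189, and SLC7A1 was at 0.0624.

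SLC7A7, the light chain of a cationic amino acid exchanger that is prominent in macrophages, stood at 0.27 ± 0.13 (limma, unadjusted p = 0.0823), from ratios of 0.10, 0.82, -0.14 and 0.31. Its 3 other probes were also above 0, between 0.10 and 0.29. Of 5 macrophage markers tested, AIF1 was above 0 on 4 of 4 arrays at 0.38 ± 0.14, while CD163 stood at -0.37 ± 0.21 and C1QA, C1QB and C1QC at 0.063, -0.022 and -0.094. The part of these cells in the values of SLC7A7 and SLC11A1 was not tested. SLC7A2, a second cationic amino acid transporter, stood at -0.0073 ± 0.11, and SLC38A5 at -0.13 ± 0.11. The glutamate and aspartate carriers SLC1A1 and SLC1A3 stood at 0.14 ± 0.17 and 0.097 ± 0.10. SLC1A1 was at -0.50 on array 3 and between 0.28 and 0.40 on the other 3, and its other probe was near 0 at -0.0034. SLC3A1, a heavy subunit of a cystine exchanger, stood at 0.040 ± 0.11. SLC6A8, the creatine transporter, ranged from -0.71 on array 2 to 0.53 on array 4, with an estimate of -0.11 ± 0.22. The median of the 9 genes was 0.097, with 6 above 0, and only 4 of them were above 0 without array 1.

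**Figure D2:**
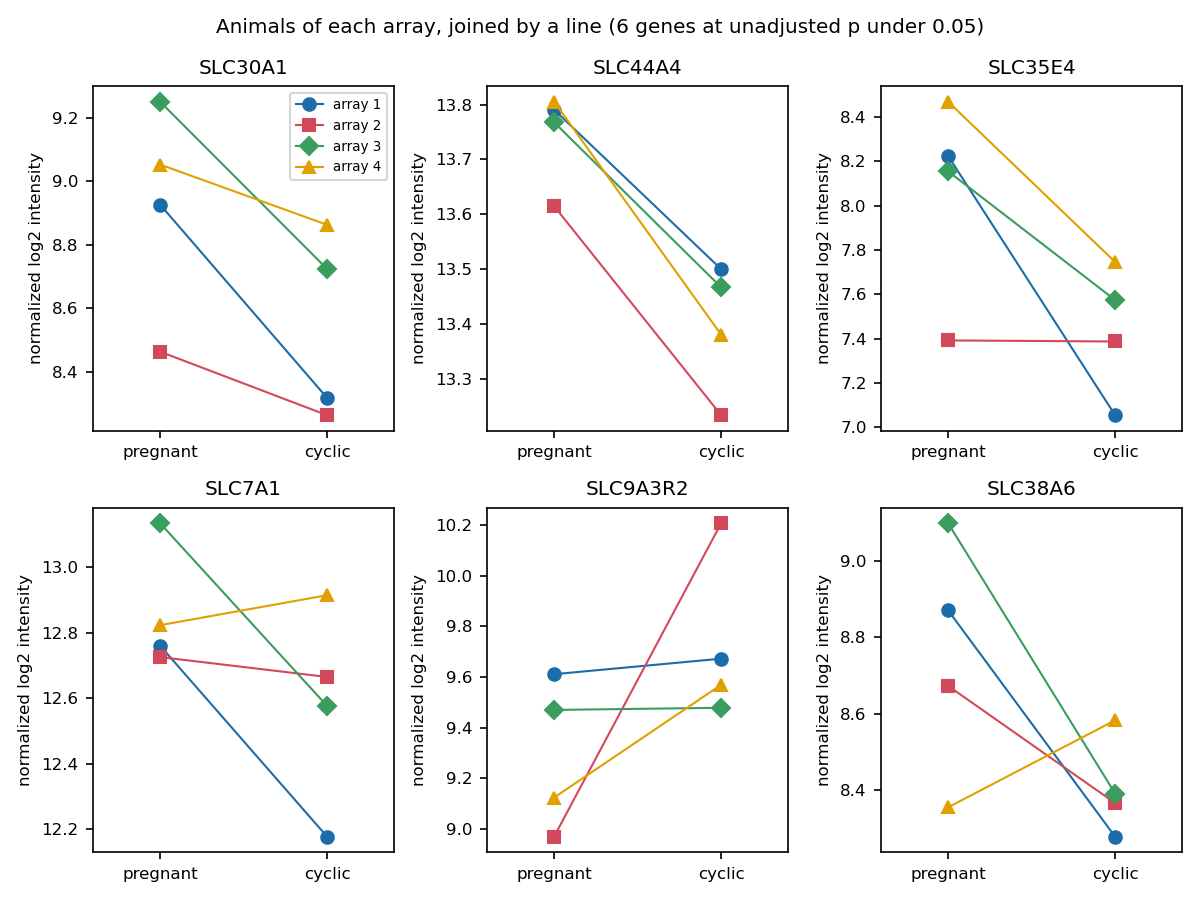
Normalized log2 intensity (y axis) of the pregnant and the cyclic animal of each of 4 arrays, joined by a line, for the 6 genes at an unadjusted p under 0.05. For SLC44A4 all pregnant animals lie above all cyclic animals, for SLC7A1 and SLC38A6 the line of array 4 runs the other way, and for SLC9A3R2 array 2 has the steepest line, at -1.24.

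SLC35E4 had the highest estimate of the 63 genes with the dyes as in the label fields, and not with Cy3 on every pregnant sample, where it stood at 0.26 and SLC9A3R2 at 0.40. It is named after the nucleotide sugar family of the Golgi, but its substrate is not known. It read 8.22, 7.39, 8.15 and 8.47 in the pregnant animals, against 7.05, 7.39, 7.57 and 7.75 in the cyclic animals. The gap was wide on arrays 1, 3 and 4 and absent on array 2, where the ratio was 0.0048, and the groups overlapped through that array. The estimate was 0.62 ± 0.17, a fold of 1.54 (limma, unadjusted p = 0.0146, adjusted p = 0.647). Its 1 probe was well above background in all 8 channels, and its estimate moved with the processing, to 0.33 with background parameters from all spots and to 0.95 with the scanner software's processed signals and no loess. Without array 1 or array 4 its unadjusted p by limma was 0.0606 and 0.0681. By their brightest probes, SLC35A3 and SLC35C1, carriers of sugars that build glycoproteins, stayed close to 0. SLC35A3, which carries UDP-N-acetylglucosamine into the Golgi, stood at 0.044 ± 0.10, with its other probe at 0.15. SLC35C1, which carries GDP-fucose, stood at 0.023 ± 0.096. SLC35C2 stood at -0.0035 ± 0.096, and SLC35A4 at -0.040 ± 0.099, with its other probe at -0.13. SLC35F5 stood at 0.23 ± 0.18, where array 2 was at 1.08 and the estimate without it -0.020. A second SLC35F5 probe gave 0.24, with ratios of 0.37, 0.51, -0.037 and 0.11. The median of the 6 genes was 0.034.

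SLC9A3R2, known as NHERF2, is not a carrier. It and SLC9A3R1, NHERF1, are PDZ-domain scaffolds that hold the exchanger SLC9A3 and other membrane proteins in place, and they enter here by their symbols. SLC9A3R2 read 9.61, 8.97, 9.47 and 9.12 in the pregnant animals, against 9.67, 10.21, 9.48 and 9.57 in the cyclic animals. The pregnant animal was lower on 4 of 4 arrays, yet the ratio was -1.24 on array 2 and near 0 on arrays 1 and 3, and the groups overlapped. The estimate was -0.44 ± 0.16 (limma, unadjusted p = 0.0354, adjusted p = 0.647), a second probe gave -0.54, and the dye effect was -0.40 ± 0.16 for red over green. Without array 2 it stood at -0.24, with an unadjusted p of 0.124 by limma. SLC9A3R1 stood at -0.079 ± 0.11, from ratios of 0.072, -0.23, 0.32 and -0.47.

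Carriers of inorganic ions had 7 of 8 estimates below 0 and none at an unadjusted p under 0.05 (0 of 8), with a median of -0.11. The widest difference was that of SLC5A5, the sodium iodide symporter that brings iodide into thyroid cells. It read 7.79, 7.25, 7.55 and 7.52 in the pregnant animals, against 11.02, 7.05, 7.71 and 7.76 in the cyclic animals. The cyclic animal of array 1 stood alone at 11.02, and the other 7 animals lay between 7.05 and 7.79. A second probe gave the same picture, with 11.50 in that animal and at most 7.54 in the others. The estimate of -0.85 ± 0.49 therefore rests on 1 animal, and without array 1 it was -0.085 (limma, unadjusted p = 0.646). Of all 18852 features, SLC5A5 had the widest gap between that animal and the highest of the other 7, 3.23. On that array, where the cyclic RNA carried Cy5, the cyclic animal was also the higher of the pair for 8 of 9 anterior pituitary markers. The same held for 2 of 3 markers of the neighbouring lobes, 3 of 4 endothelial, 3 of 5 macrophage and 3 of 3 stromal markers. A dye effect at an unadjusted p under 0.05 by limma was found for 2 anterior pituitary, 1 endothelial, 1 macrophage and 2 stromal markers. Over all features that share was 10%. The part of the dye in these counts and their bearing on SLC5A5 were not tested. SLC26A4, which passes iodide out of thyroid cells, was not well above background in any channel.

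The anion transporters SLC26A6 and SLC26A11 stood at -0.22 ± 0.14 and -0.21 ± 0.14. SLC26A11 followed the dye, with arrays 1 and 3 at 0.28 and 0.094, arrays 2 and 4 at -0.91 and -0.32, and a dye effect of -0.40 ± 0.14. SLC41A1, a magnesium carrier, was below 0 on 4 of 4 arrays at -0.11 ± 0.097, but was well above background in 1 of the 4 pregnant channels and in 4 of the 4 cyclic channels. SLC12A4, a potassium chloride cotransporter, stood at -0.11 ± 0.17, and SLC9A2, a sodium proton exchanger, at -0.091 ± 0.13, with its other probe at 0.17. SLC24A2, a potassium-dependent sodium calcium exchanger, was the 1 gene above 0 at 0.11 ± 0.11. SLC26A5, which encodes prestin, stood at -0.022 ± 0.10 and was well above background in 1 pregnant and 3 cyclic channels. With Cy3 on every pregnant sample 4 of 8 were below 0. Leaving out 1 array brought the number below 0 to between 5 and 7 of 8.

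Of the carriers of organic anions and cations, SLC22A4 had the largest difference. It encodes OCTN1, a transporter of the antioxidant ergothioneine. It read 10.26, 11.51, 11.55 and 11.76 in the pregnant animals, against 10.26, 12.68, 12.88 and 11.97 in the cyclic animals. On arrays 2 and 3 the cyclic animal was the higher by more than 1 log2 unit, on arrays 1 and 4 the pair was nearly level, and both animals of array 1 were lower than all others. The estimate was -0.67 ± 0.27 (limma, unadjusted p = 0.0533, adjusted p = 0.647). Over the fits that each lack 1 array it ran from -1.01 to -0.34. The lowest of these, without array 1, had an unadjusted p of 0.00587 by limma. The second probe of this gene was too dim to be kept. SLC22A6, the organic anion transporter OAT1, stood at -0.20 ± 0.12, from ratios of -0.63, -0.11, -0.27 and 0.22. SLC22A7 and SLC22A2, further transporters of this family, stood at -0.018 ± 0.097 and 0.039 ± 0.11. SLCO2A1, the prostaglandin transporter, stood at -0.058 ± 0.099, with ratios of -0.11, 0.059, -0.30 and 0.12 that changed sign between arrays. SLC10A7 stood at -0.11 ± 0.097, with its other probe at 0.028. Estimates were below 0 for 5 of the 6 genes, with a median of -0.085, and 0 of 6 were at an unadjusted p under 0.05. With processed signals, with the authors' value table and with Cy3 on every pregnant sample, 3 of the 6 were below 0.

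Sugar carriers numbered 4, with 3 above 0 and 0 at an unadjusted p under 0.05. SLC5A10, a sodium-coupled carrier of mannose and fructose, stood at -0.29 ± 0.14 by its brightest probe, from ratios of -0.24, -0.79, 0.41 and -0.53. Its other probe stood at 0.47, so the direction of this gene was not settled. SLC5A1, the sodium glucose cotransporter SGLT1, stood at 0.12 ± 0.11, with its 3 other probes between -0.18 and 0.075. SLC5A4, its relative, stood at 0.054 ± 0.10, and SLC2A4, the insulin-regulated glucose transporter GLUT4, at 0.036 ± 0.15 with array 2 at 0.56. The other SLC2A4 probe above background gave -0.083. The peptide carriers SLC15A1 and SLC15A2, PEPT1 and PEPT2, stood at -0.26 ± 0.16 and 0.047 ± 0.11. The other SLC15A1 probe gave -0.026. By its brightest probe SLC15A1 read 9.64, 7.83, 8.16 and 7.73 in the pregnant animals and 10.03, 7.68, 8.35 and 8.36 in the cyclic animals, so both animals of array 1 were above the other 6. SLC16A1, the monocarboxylate transporter MCT1 that carries lactate and pyruvate, stood at -0.035 ± 0.12, from ratios of 0.21, -0.23, -0.18 and 0.061.

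Mitochondrial carriers of the SLC25 family had, by their brightest probes, 0 of 7 genes at an unadjusted p under 0.05 and a median of -0.029. SLC25A15, the ornithine carrier, was between 0.35 and 0.43 on arrays 1, 2 and 4 and at -0.39 on array 3, with an estimate of 0.19 ± 0.15. SLC25A27, the uncoupling protein UCP4, stood at -0.13 ± 0.18, from ratios of -0.45, -0.51, 0.39 and 0.039. The adenine nucleotide carrier SLC25A6 stood at -0.038 ± 0.099 by its brightest probe, which had red over green on all arrays, with a dye effect of 0.26 ± 0.099. Its other probes disagreed in size: 3 gave -0.35, -0.42 and -0.34, each below 0 on 4 of 4 arrays, and 2 gave -0.037 and -0.081. In a limma fit of every kept probe those 3 had unadjusted p of 0.0286, 0.0214 and 0.0308. The phosphate carrier SLC25A3 stood at -0.029 ± 0.10, with its 8 other probes between -0.013 and 0.078. The calcium-regulated carriers of ATP and phosphate SLC25A23 and SLC25A24 stood at 0.0068 ± 0.10 and -0.013 ± 0.097. The other SLC25A23 probe gave -0.10.

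**Figure D3:**
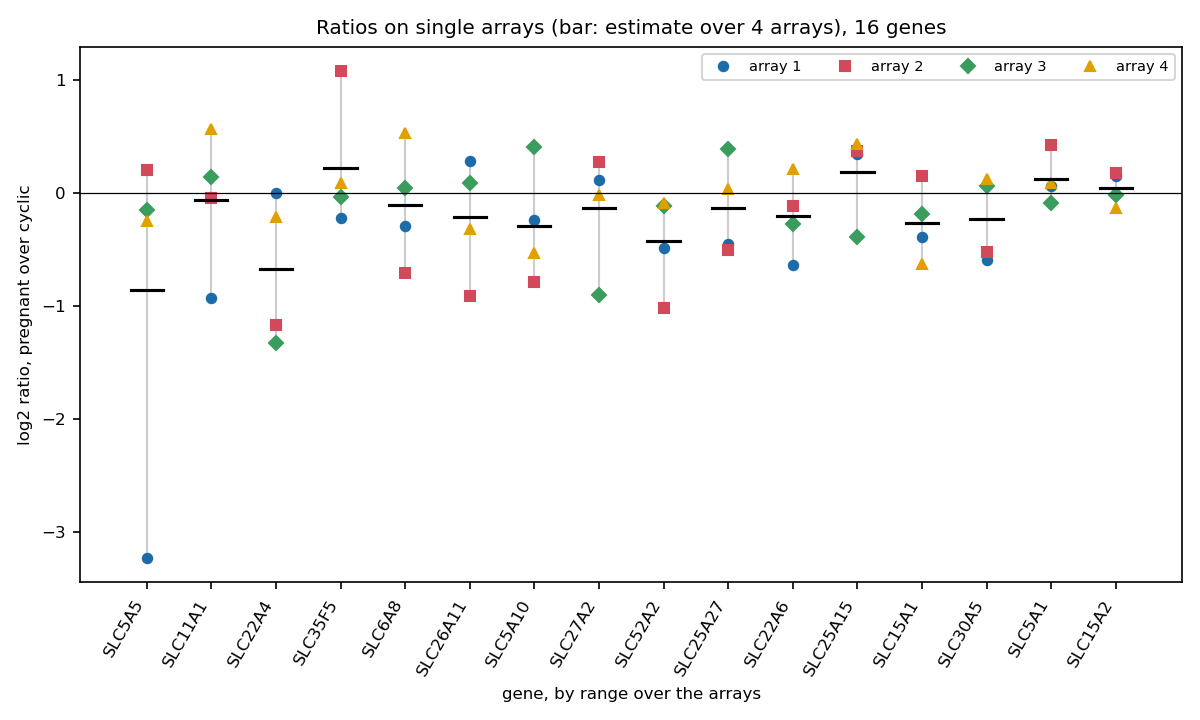
Log2 ratio of pregnant over cyclic (y axis) on each of 4 arrays for 16 other genes chosen by the naming rule, ordered by their range, with a bar at the limma estimate. SLC5A5 spans from -3.23 to 0.21, and at the narrow end SLC15A2 spans from -0.13 to 0.18.

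**Figure D4:**
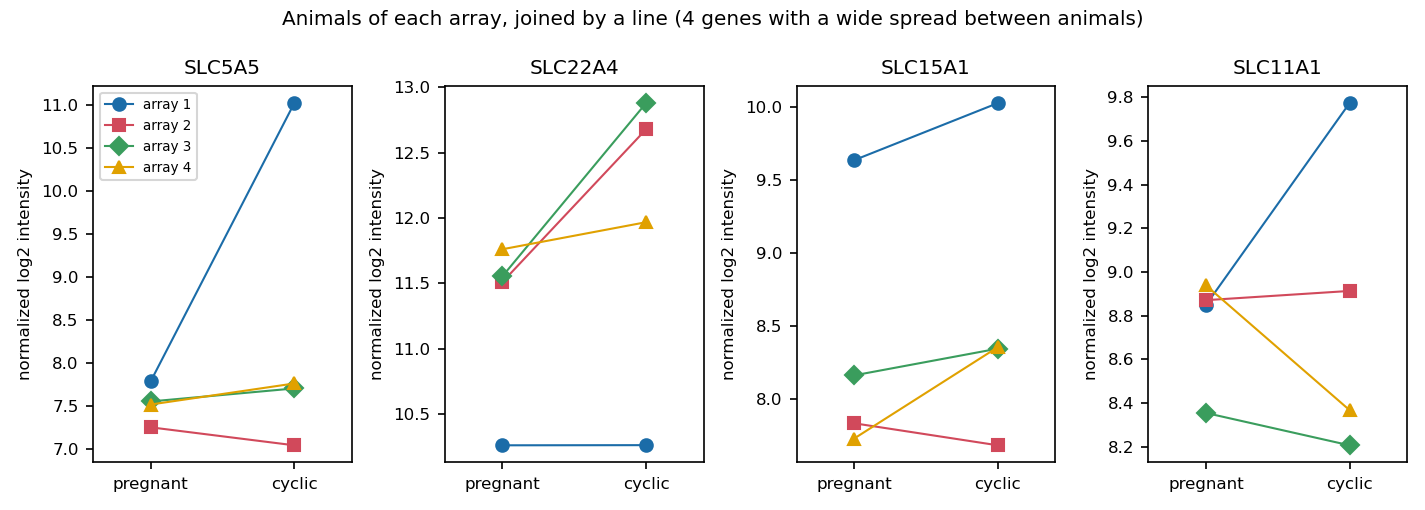
Normalized log2 intensity (y axis) of the pregnant and the cyclic animal of each array, joined by a line, for 4 genes with a wide spread between animals. The cyclic animal of array 1 stands alone for SLC5A5 at 11.02, while for SLC22A4 and SLC15A1 both animals of array 1 stand apart from the other 6.

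How far probes of the same gene agreed could be seen for 34 of the 63 genes, which had 61 further probes above background. Of these, 43 had the sign of the brightest probe, and for 23 genes all of them did. The genes furthest from 0 were among them, SLC5A5, SLC9A3R2, SLC52A2, SLC38A6 and SLC30A1, while SLC5A10 and SLC11A1 were not. SLC22A4 and SLC35E4 had a single probe above background. A dye effect at an unadjusted p under 0.05 was found for 5 genes, SLC7A1, SLC26A11, SLC25A6, SLC9A3R2 and SLC5A10, beside 10% of all features. The median range of a gene over the 4 arrays was 0.54, beside 0.59 over all features.

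**Figure D5:**
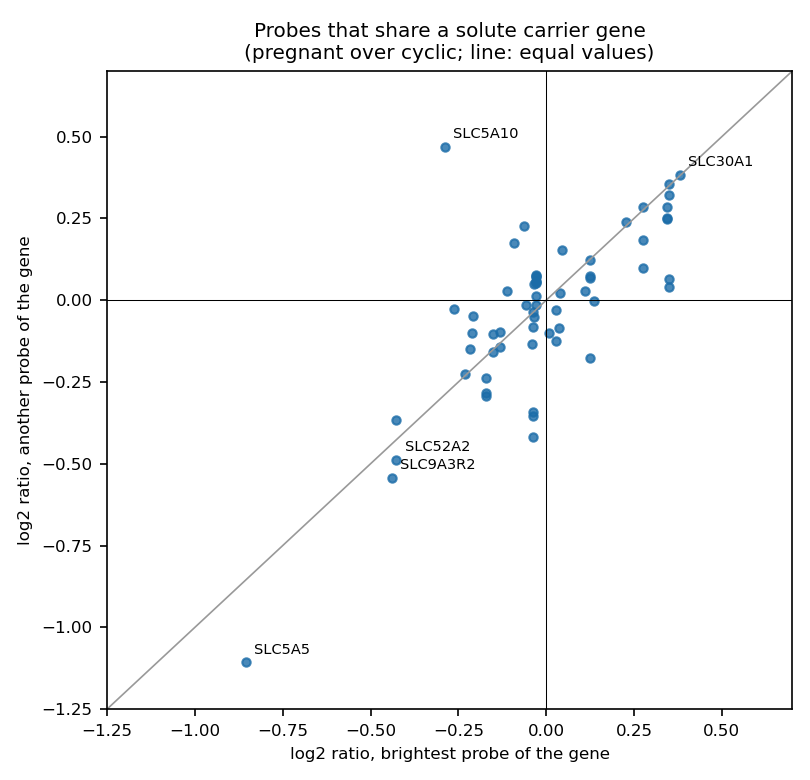
Log2 ratio of pregnant over cyclic for the brightest probe of a solute carrier gene (x axis) and for each of its other probes above background (y axis), 61 points from 34 genes, with a line at equal values. SLC5A5 lies near the line at the lower left, and SLC5A10 lies far from it, at -0.29 and 0.47.

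Proteins that drive, chaperone or regulate carriers were set beside them. Of 17 such genes tested, 0 stood above 0 and 1 below 0 at the unadjusted threshold of 0.05, beside 3.03% and 4.18% of all features, with 12 below 0 and a median of -0.075. The 1 lower gene was AKT1, a kinase that moves glucose transporters to the cell surface, at -0.40 ± 0.16. Its ratios were -0.19, -1.03, -0.15 and -0.23, so array 2 was the furthest from 0. All 4 pregnant animals lay below all 4 cyclic animals, narrowly, with 9.13 the highest pregnant and 9.22 the lowest cyclic value. It was the 1 gene of the 17 without overlap of the groups, beside 1.9% of all features. The sodium pump subunit ATP1B1 stood at -0.13 ± 0.11. Of 5 subunits of the vacuolar proton pump, ATP6V1H and ATP6V0E1 were above 0 on 4 of 4 arrays, as were 6.42% of all features. They stood at 0.18 ± 0.097 and 0.18 ± 0.10, and neither was at an unadjusted p under 0.05. The other subunits, ATP6V1G1, ATP6V1G2 and ATP6V1A, stood at 0.098 ± 0.13, 0.00016 ± 0.13 and -0.025 ± 0.10. Each was above 0 on 2 arrays and below 0 on 2. BSG, the chaperone of monocarboxylate transporters, stood at -0.30 ± 0.15. SGK1, a kinase that keeps sodium carriers at the membrane, stood at -0.18 ± 0.099. Its ratios followed the dye, with a dye effect of 0.75 ± 0.099 for red over green. They ranged from -1.01 to 0.63, below 0 on arrays 1 and 3 and above 0 on arrays 2 and 4. Of the ABC transporters, which burn ATP to move their substrates, ABCG2 stood at -0.20 ± 0.094 and ABCD3 at 0.15 ± 0.15.

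The remaining 19 solute carrier genes on the array were not tested. For 11 of them no probe was well above background in any channel, among them SLC2A2, the glucose transporter GLUT2 of liver and islets, and SLC34A2, a phosphate carrier. The other 8 were above background in 1 to 3 channels, among them SLC31A1, the copper importer. At the edge of that rule, 4 probes were above background in 3 channels and left out and 7 in 4 channels and kept.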

How the data were processed

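Total RNA of 8 anterior pituitary glands was hybridised in 4 pairs to two-colour Agilent arrays, quantified by Feature Extraction 10.7.3.1. Each deposited file, per the file headers, lists for every spot, in either channel, a median intensity, a background intensity and a processed intensity that the software had background-subtracted and dye-normalized. Flags for outliers and for spots well above background are the software's. The authors' value table holds log2 ratios; for 43553 probes spotted once they equalled log2 of the processed intensities, turned to pregnant over cyclic, within 0.001 on each array, with column medians of 0.150, -0.0102, 0.0650 and -0.0726.

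The ratios come from limma 3.58.1 in R 4.3.3. Here normexp (offset 50) took off the background, its parameters estimated without spots marked as outliers, and loess (span 0.3) normalized the ratios of an array. Marked spots were left out, spots of a probe averaged, and every ratio turned to pregnant over cyclic by the label fields. The text of the labelling protocol instead gives Cy3 to all pregnant samples, and group and dye could then not be told apart. The probes kept were those above background in 4 or more of 8 channels, 25138 of 43603, and the brightest stood for a gene. Names came from RefSeq accessions and the Sscrofa11.1 annotation, which gave 6700 probes 1 symbol each; positions and sequences are not used here. limma's lmFit and eBayes gave two-sided p-values, adjusted by Benjamini-Hochberg over all features, and the code was tested on simulated data. Values of single animals are channel intensities after loess and Aquantile. All 4 arrays lay on 1 slide, so there was no batch to fit, and no count of reads exists. The number of arrays limits precision.

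The text names genes at an unadjusted p under 0.05 and, in each substrate group of at least 3, the 2 of lowest p and the 1 of widest range; the other members are named to account for the rest, except that some genes are counted but not reported here. The members and the lists were chosen with earlier results of these data known, and substrate groups follow family names. The alternatives tried were the background correction and offset, the normalization, the filter, the dye term and orientation, separate channels, the mean of probes, the authors' value table and leaving out each array.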

Additional observations from a re-analysis of the deposited data

Results flagged for a closer look

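For 6 of the 63 tested carriers 1 array stood apart from the other 3 by Dixon's criterion at 4 samples. Chance meets it for about 1 in 20 groups of normal values, and ratios with a dye effect are not such values. No share over all features stands beside this count. SLC5A5 was at -3.23 on array 1, and the others lay between -0.24 and 0.21. SLC1A1 was at -0.50 and SLC25A15 at -0.39 on array 3, against 0.28 to 0.40 and 0.35 to 0.43 on the other arrays. SLC1A3 was at 0.31 and SLC31A2 at 0.46 on array 2, against at most 0.056 and -0.11 elsewhere. SLC1A3 was dim, well above background in 2 pregnant and 2 cyclic channels. SLC35C1 was at -0.058 on array 4 and between 0.039 and 0.057 on the rest. Among the 46 groups of 4 animals of the genes chosen by the naming rule, 2 had an animal apart: the pregnant animal of array 1 for SLC22A4, at 10.26 against 11.51 to 11.76 in the other 3, and the pregnant animal of array 3 for SLC11A1, at 8.35 against 8.85 to 8.94.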

How the results depend on the processing

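The fits on ratios are paired by array, and the fit on separate channels kept the array as a random block. Of the carriers, 0 passed an adjusted p of 0.05 under any of the 15 alternatives. The 6 genes at an unadjusted p under 0.05 kept their sign under all 14 alternatives that follow the label fields. These are not all separate checks. As the dyes are balanced over the arrays, the fits without the dye term and on separate channels return the estimates of the Results. The value table repeats the processed signals, so that setting counts again in the tallies below. With 1 orientation of the dyes, SLC44A4 stood at -0.054 and SLC9A3R2 at 0.40. Of those 14, SLC30A1 was under 0.05 in 12, SLC35E4 in 11, SLC38A6 in 8, SLC44A4 and SLC9A3R2 in 7 each and SLC7A1 in 4, with limma adjusted p between 0.200 and 1.00. SLC22A4 and SLC52A2, not called in the Results, were under 0.05 in 5 each. Counts over all features past the adjusted threshold were 2 with a background offset of 16 and 3 with separate channels, and those at an unadjusted p under 0.05, 1360 in the Results, were 2335 without the filter, 2490 with separate channels and 617 to 2174 with 1 array left out (638 without array 1, 617 without array 2, 2174 without array 4). Carriers above and below 0 at that threshold numbered 3 and 1 with processed signals and with the authors' value table, 4 and 3 with background parameters from all spots, 4 and 2 with the offset of 16, 0 and 2 under median centring, 5 and 2 with all 8 channels required, 3 and 2 without the dye term, 6 and 2 with separate channels, 3 and 2 with the mean of a gene's probes and 2 and 1 with 1 orientation of the dyes. With 1 array left out they ran from 0 to 4 above and 1 to 6 below, array 1 leaving 0 and 1 when dropped, array 2 3 and 1, array 3 2 and 2, and array 4 4 and 6. The carriers' median was 0.014 with processed signals and with the value table, -0.066 under median centring, where that of all features was -0.071, and -0.015 to 0.012 with 1 array left out. Of the carrier partners, 2 were above and 2 below 0 at that threshold with parameters from all spots, and the number below 0 was 0 with processed signals, median centring, no dye term and the value table, 2 without the filter, 4 with separate channels and 0 to 2 with 1 array left out.

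Estimates that changed sign were these: SLC15A2 at -0.066 with processed signals and the value table, -0.030 under median centring and -0.031 without array 2; SLC25A15, SLC25A27 and SLC5A1 at -0.0062, 0.0043 and -0.0027 with parameters from all spots; SLC5A10 and SLC11A1 at 0.091 and 0.082 with the mean of their probes. Without array 1, SLC25A27 stood at 0.077 and SLC11A1 at 0.21. Without array 2, SLC6A8 stood at 0.20, SLC25A27 at 0.0045, SLC35F5 at -0.020 and SLC11A1 at 0.091, and without array 3 SLC27A2 at 0.12. Over the 4 fits that each lack 1 array, SLC6A8 ran from -0.42 to 0.20, SLC25A27 ran from -0.34 to 0.077, SLC35F5 ran from -0.020 to 0.48, SLC27A2 ran from -0.38 to 0.12, SLC11A1 ran from -0.33 to 0.21, SLC15A2 ran from -0.031 to 0.12. The cause was not tested. Fits with 1 array left out kept the dye term, so 1 array then counted as much as the 2 of the other orientation. Of the 63 carriers, 10 were not above background in all 8 channels, and there the background limits the ratio.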

Other observations

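The cyclic animal of array 1, which stood alone for SLC5A5, stood more than 1 log2 unit above the other 7 animals for 32 of 18852 features, 6 of them with a gene symbol. Beside SLC5A5 these were CFB, complement factor B, by 2.45, PTN, the growth factor pleiotrophin, by 1.21, CNN1, a calponin of smooth muscle, by 1.10, IGF2 by 1.09 and MYOG, a muscle transcription factor, by 1.02. SLC5A5 was the 1 solute carrier among them. These genes were listed after the values of SLC5A5 had been seen. No such count was made for the other 7 animals, so whether 32 is many for 1 animal was not tested.

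Cyclic animals varied more than pregnant animals for 36 of the 63 carriers, 57.1%, with the animals' SD as the measure. That share lay near the 51.7% of all features. Pregnant animals had SDs of 0.22 for SLC5A5, 0.68 for SLC22A4 and 0.88 for SLC15A1, against 1.79, 1.19 and 1.00 in cyclic animals. The 1.79 of SLC5A5 rests on the cyclic animal of array 1. Other carriers went the other way, such as SLC6A8, at 0.45 in pregnant and 0.18 in cyclic animals, and SLC38A6, at 0.32 and 0.13.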
